A study of Solanum lycopersicum with 9 samples.

Results

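The vegetative YABBY genes of tomato were followed from the stem cell region of the shoot apex into the young leaf. They are the YABBY1, YABBY2 and YABBY5 type genes, taken by 6 gene IDs out of 34866 genes with a row of normalized counts. The tissue was cut by laser from frozen apex sections of 12 to 14 day old seedlings of the line M82 SP+. Seedlings grew on sterile medium at 21 to 23 °C under a day of 11 h and a night of 13 h, and no treatment or mutation distinguished the groups. The groups were the chlorophyll-free central zone (CZ) of the shoot apical meristem (SAM), its peripheral zone (PZ), where chlorophyll first appears, and the leaf primordium (LP). Each was sequenced as 3 libraries (numbered CZ1 to CZ3, and likewise for PZ and LP), and each library pooled 3 sections of 10 µm. LP tissue came from the abaxial (lower) side of the primordium only, and no adaxial (upper) sample was at hand, so abaxial and adaxial tissue could not be compared.

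YABBY proteins are plant transcription factors with a zinc finger and a helical DNA-binding YABBY domain. In Arabidopsis the vegetative members are expressed on the abaxial side of leaf primordia and in lateral organs, not in the centre of the meristem. There they promote abaxial identity, the outgrowth of the blade and the repression of class I KNOX genes such as STM, which keep meristem cells undifferentiated. The YABBY1 type corresponds to the Arabidopsis genes FILAMENTOUS FLOWER and YABBY3, and the YABBY2 and YABBY5 types to genes of the same names. The remaining members of the family act in carpels and ovules.

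The 6 members lie on 6 chromosomes, and no other annotated gene overlaps any of them (build SL2.50). YABBY1A is Solyc01g091010 (chromosome 1, 84714369 to 84718183), and YABBY1b is Solyc08g079100 (chromosome 8, 62742583 to 62745941). YABBY2A is Solyc06g073920 (chromosome 6, 45648701 to 45654988), and YABBY2, also known as SlYABBY2b, is Solyc11g071810 (chromosome 11, 55165770 to 55172156). YABBY5a is Solyc07g008180 (chromosome 7, 2916878 to 2921416), and YABBY5B is Solyc12g009580 (chromosome 12, 2837433 to 2843798). The symbols are those of RefSeq, whose annotation holds 6 YABBY symbols, exactly 1 on each of these chromosomes. They were matched by type and chromosome, since the ID systems share no entry. It lists YABBY1 and YABBY3, the names under which the study lists Solyc01g091010 and Solyc08g079100, as synonyms of YABBY1A and YABBY1b.

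CEL-Seq reads the 3′ ends of transcripts, so a level below is a number of 3′ end reads per library, scaled by the authors and not divided by gene length. The libraries held 40286 to 144665 reads on genes, and a single read was worth 0.288 normalized counts in CZ1 and 1.09 in LP3, with the others between. At this depth the members are read from few reads: 223 over all 9 libraries for YABBY1A, 120 for YABBY5a, 100 for YABBY1b, 28 for YABBY5B, 24 for YABBY2A and 18 for YABBY2. Only YABBY1A, YABBY1b and YABBY5a reached the minimum of 6 normalized counts in at least 1 library that the test between zones required. Whether duplicate molecules were collapsed, and how reads that fit several near-identical genes were counted, is not given in the sources used here, so the split of reads within a type is uncertain. A count of 0 allows up to 3 reads, and all intervals on reads cover counting error only. The study describes the 3 samples of each zone as biological replicates, but no source assigns libraries to seedlings. If libraries of 1 zone came from 1 plant, the p-values are too small for a statement about plants, and in any case they measure only the spread between these libraries. In bulk tissue, fewer cells of a type and less RNA per cell cannot be told apart.

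Summed over the 6 members, YABBY transcripts were scarce in the meristem and more abundant in the primordium. The summed normalized count was 25.39, 23.34 and 14.46 in CZ1 to CZ3, 21.58, 29.61 and 22.76 in PZ1 to PZ3, and 47.50, 63.36 and 62.26 in LP1 to LP3. Every LP library thus lay above every meristem library, while CZ and PZ overlapped. The mean was 57.7 ± 8.86 in LP, 24.7 ± 4.34 in PZ and 21.1 ± 5.81 in CZ (SD, n = 3 each), and LP was 2.74-fold above CZ and 2.34-fold above PZ. As a share of a library's reads the members took 0.0329% to 0.0608% in CZ, 0.0479% to 0.0636% in PZ and 0.113% to 0.141% in LP. The lowest exact (Clopper-Pearson) 95% bound of an LP library, 0.0929% in LP1, was above the highest upper bound of a meristem library, 0.0866% in PZ2. These sums are a description without a test, since the members were chosen with earlier results of these data known. Reads of 5 or 6 of the members were found in every library, the CZ libraries included.

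**Figure D1:**
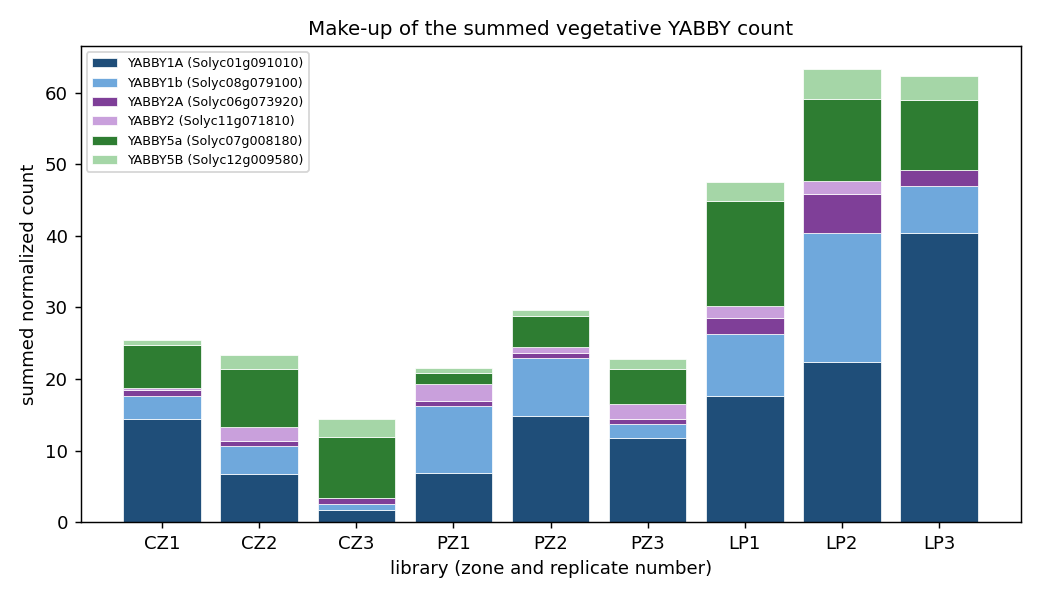
Summed normalized count of the 6 YABBY genes in each of the 9 libraries, stacked by gene. The 3 LP bars reach 47.50 to 63.36 and the 6 CZ and PZ bars 14.46 to 29.61, and the YABBY1A part ranges from 1.70 in CZ3 to 40.42 in LP3.

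YABBY1A, of the FILAMENTOUS FLOWER type, was the member with the most reads and the only one that passed the test between zones. Its normalized count was 14.42, 6.67 and 1.70 in CZ1 to CZ3, 6.94, 14.81 and 11.72 in PZ1 to PZ3, and 17.70, 22.33 and 40.42 in LP1 to LP3. All LP libraries lay above all meristem libraries, and the CZ and PZ libraries overlapped, with CZ1 close to the highest PZ library. Its mean was 26.8 ± 12.0 in LP, 11.2 ± 3.97 in PZ and 7.60 ± 6.41 in CZ (SD, n = 3 each), a 3.53-fold difference of means between LP and CZ. By pooled reads, 115 in LP and 62 in CZ, LP was 2.24-fold above CZ (95% counting interval 1.63 to 3.11). CZ1, the library with the most reads on genes, held 50 of the reads in CZ. YABBY1A rose from CZ to LP, the log2 fold change being 1.94 (standard error 0.45, 95% interval 1.07 to 2.81, adjusted p = 0.00248 from limma over 4044 genes). The fold is on the scale of log2(normalized count + 1), where the added 1 lowers the fold of genes with few reads. It was nevertheless not a low estimate for YABBY1A. The log2 fold change between LP and CZ was smaller on the recovered reads, 1.57 with edgeR and 1.68 with DESeq2. In that comparison 1.43% of all genes tested were called and 1.19% were called higher in LP, a call being a change of 1.5-fold or more whose adjusted p was no larger than 0.05.

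The call on YABBY1A rested on some libraries and on the method. In the fit the error of a gene is that of the trend over all genes at its level, and the spread of its own libraries adds nothing to it. The call was lost without CZ3, the library with the lowest count (log2 fold change 1.27, adjusted p = 0.335), and without LP3, the library with the highest (1.61, adjusted p = 0.114). With only CZ and LP in the fit the adjusted p was 0.151. On the recovered reads edgeR gave a log2 fold change of 1.57 (adjusted p = 0.134) and DESeq2 1.68 (adjusted p = 0.0986), and neither made the call. Over the 19 alternatives the log2 fold change stayed between 1.27 and 2.53, the adjusted p ranged from 0.000303 to 0.335, and 14 made the call.

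YABBY1b, the other gene of this type, was higher in LP than in CZ by a like amount, but did not pass the test. Its normalized count was 3.17, 4 and 0.85 in CZ1 to CZ3, 9.25, 8.14 and 2.07 in PZ1 to PZ3, and 8.64, 18.10 and 6.55 in LP1 to LP3. The LP and CZ libraries did not overlap, whereas the PZ libraries spanned the gap between them. Its mean was 11.1 ± 6.15 in LP, 6.49 ± 3.87 in PZ and 2.67 ± 1.63 in CZ (SD, n = 3 each), and those of LP and CZ differed 4.15-fold. The log2 fold change between LP and CZ was 1.72 (standard error 0.58, 95% interval 0.59 to 2.86, unadjusted p = 0.00296, adjusted p = 0.128 from limma). With YABBY1A it made 2 members with an unadjusted p of at most 0.05. No alternative called it, with adjusted p from 0.0778 to 0.741. The study lists both YABBY1A and YABBY1b as higher in LP than in CZ. Its rule differs from the one used here, since it also took genes by an unadjusted p together with qPCR. Whether the YABBY1 type genes differed in their change was tested on their log2 ratio within each library. The ratio of YABBY1A to YABBY1b was 1.02 ± 0.75 in CZ and 1.23 ± 1.11 in LP (log2, SD, n = 3 each, exact permutation test, two-sided p = 0.7). With 3 libraries against 3 this exact test cannot go below p = 0.1.

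YABBY5a had another course along the zones, with the lowest counts in PZ. Normalized counts were 6.06, 8 and 8.51 in CZ1 to CZ3, 1.54, 4.44 and 4.83 in PZ1 to PZ3, and 14.68, 11.47 and 9.83 in LP1 to LP3. All PZ libraries lay below all CZ libraries and all LP libraries above both, a separation of all zones that no other member showed. Its mean was 12.0 ± 2.47 in LP, 3.60 ± 1.80 in PZ and 7.52 ± 1.29 in CZ (SD, n = 3 each). No step passed the test, although the step from PZ to LP was 3.33-fold by the means. Its log2 fold change was 1.57 (standard error 0.53, 95% interval 0.52 to 2.62, unadjusted p = 0.00328, adjusted p = 0.36 from limma). From CZ to PZ the log2 fold change was −0.97 (95% interval −2.02 to 0.08, adjusted p = 0.784), and from CZ to LP it was 0.60 (−0.44 to 1.65, adjusted p = 0.815). Of all genes with a read, 2.45% had every PZ library below every CZ library, as did 4.23% of the genes tested. YABBY5a was 1 of the 6 members to do so.

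YABBY5B, of the same type, was found at lower counts. Normalized counts were 0.58, 2.00 and 2.55 in CZ1 to CZ3, 0.77, 0.74 and 1.38 in PZ1 to PZ3, and 2.59, 4.22 and 3.28 in LP1 to LP3. The LP libraries were the highest, but LP1 exceeded CZ3 by only 0.04, from 6 reads in LP1 and 3 in CZ3. Pooled over libraries, 16 reads of 216002 in LP, 4 of 187921 in PZ and 8 of 261317 in CZ were its own. LP was 2.42-fold above CZ by these reads, with a 95% counting interval of 0.977 to 6.53 that includes no difference. LP was 3.48-fold above PZ (1.12 to 14.3). The ratio of YABBY5a to YABBY5B did not differ detectably between LP (1.57 ± 0.48) and CZ (1.72 ± 0.39; log2, SD, n = 3 each, exact permutation p = 0.5).

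YABBY2A, of the YABBY2 type, had next to no reads in the meristem. The normalized count was 0.87, 0.67 and 0.85 in CZ1 to CZ3, 0.77, 0.74 and 0.69 in PZ1 to PZ3, and 2.16, 5.43 and 2.18 in LP1 to LP3. A single read lay behind the value of every meristem library except CZ1, which had 3, and the LP libraries had 5, 9 and 2. All LP libraries were above all meristem libraries, though each of the meristem values is below what 3 reads would give, or equal to it in CZ1. Pooled reads were 16 in LP, 5 in CZ and 3 in PZ, which makes LP 3.87-fold above CZ (95% counting interval 1.36 to 13.5). The gene was under the minimum for the test. When the minimum was dropped, its log2 fold change between LP and CZ was 1.16 (95% interval −0.13 to 2.45, adjusted p = 0.912 over 22708 genes in limma).

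YABBY2 was the member with the fewest reads and the only one without a separation of LP from CZ. The normalized count was 0.29, 2.00 and 0 in CZ1 to CZ3, 2.31, 0.74 and 2.07 in PZ1 to PZ3, and 1.73, 1.81 and 0 in LP1 to LP3. All zones overlapped, and the counts of 0 allow levels of up to 2.55 in CZ3 and 3.28 in LP3. Pooled over libraries it had 4 reads in CZ and 7 in each other zone, so that LP was 2.12-fold above CZ with a 95% counting interval of 0.538 to 9.86. A difference was not detectable at this depth. The log2 ratio of YABBY2A to YABBY2 was 0.19 ± 0.92 in CZ and 1.02 ± 0.74 in LP (SD, n = 3 each, exact permutation p = 0.4). Adjusted over the 3 pairs of genes, all p-values for these ratios were 0.7.

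**Figure D2:**
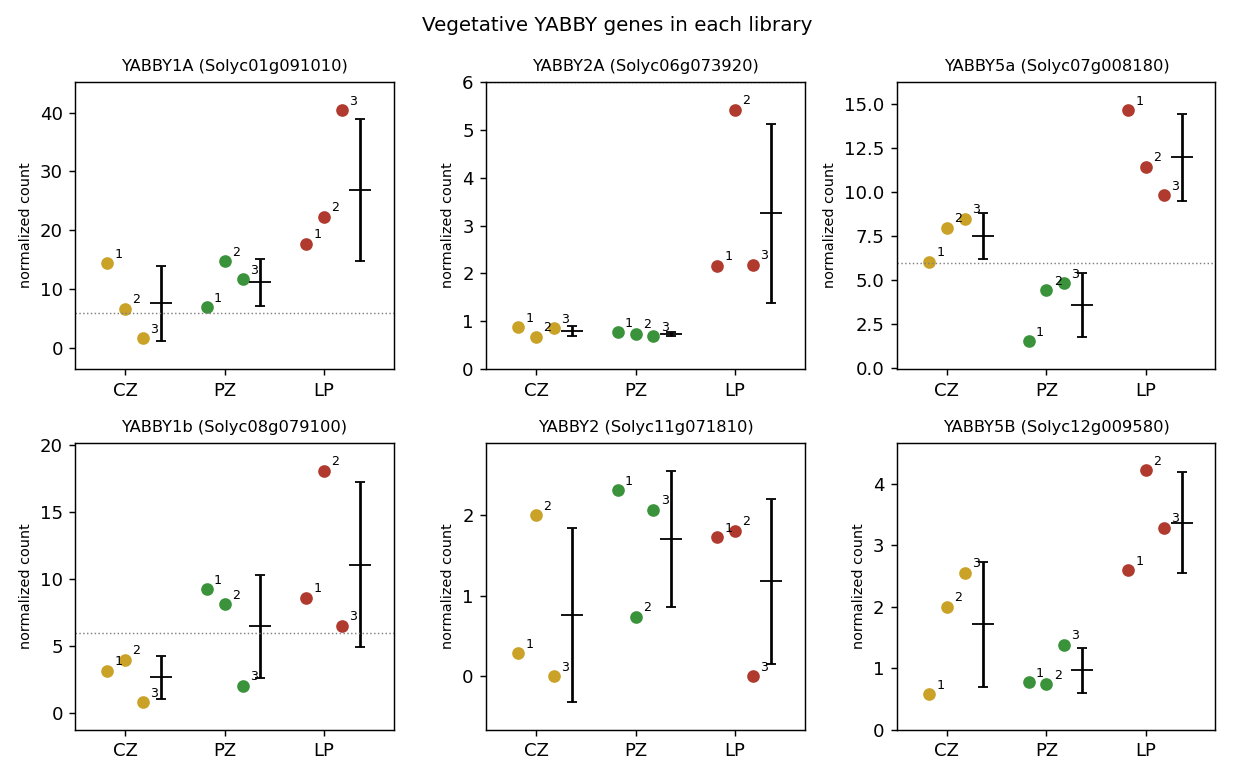
Normalized count of each YABBY gene (vertical axis, a different range in each panel) in the CZ, PZ and LP libraries, with points numbered by library, black bars for mean ± SD (n = 3) and a dotted line at the minimum of 6 where the axis reaches past it. YABBY1A reaches 40.42 in LP3, YABBY5a is lowest in PZ at 1.54 to 4.83, and YABBY2 overlaps in all zones.

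Across the family LP held the highest counts for most members, while the order of the CZ and PZ means varied between members. Every LP library exceeded every CZ library for 5 of the 6 members, all but YABBY2, beside a background in which 3.8% of the 22708 genes with a read and 8.95% of the 4044 genes tested did so. Every LP library exceeded every CZ and every PZ library for 4 members, YABBY1A, YABBY2A, YABBY5a and YABBY5B, against 1.15% of genes with a read and 2.79% of genes tested. With equal totals for the libraries, or with TMM scaling, both counts and the genes behind them were the same. These alternatives were added after seeing the data. Between CZ and PZ the means of YABBY1A, YABBY1b and YABBY2 were higher in PZ and those of YABBY2A, YABBY5a and YABBY5B lower. By pooled reads the ratio of PZ to CZ was 1.03 for YABBY1A (95% counting interval 0.689 to 1.54) and 2.43 for YABBY2 (0.619 to 11.3). It was 0.834 for YABBY2A (0.13 to 4.29) and 0.695 for YABBY5B (0.153 to 2.6). These intervals include no difference, so the order was not settled for these members. Those of YABBY1b (1.06 to 3.89) and YABBY5a (0.25 to 0.891) did not include it, but they leave out the spread between libraries. For YABBY1b, PZ3 at 2.07 lay below CZ1 at 3.17 and CZ2 at 4. The limma intervals of both genes for PZ against CZ include no difference, so their order was not settled either. The fits of the 3 members tested are described next.

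In the comparison of PZ with CZ, 0 of the 3 members tested were called by limma, edgeR or DESeq2, 0 had an unadjusted p of at most 0.05, and 0.321% of all genes tested were called. The log2 fold change was 0.77 for YABBY1A (95% interval −0.10 to 1.65, adjusted p = 0.791 from limma) and 0.97 for YABBY1b (−0.17 to 2.1, adjusted p = 0.826). For YABBY5a it was −0.97 (−2.02 to 0.08, adjusted p = 0.784). All 3 intervals include 0. That of YABBY1b also includes its log2 fold change between LP and CZ (1.72), and that of YABBY1A ends below its own (1.94). Between LP and PZ 0 of 3 members were called by the same tools, with 0.148% of all genes called. YABBY1A had a log2 fold change of 1.17 in that comparison (95% interval 0.29 to 2.04, unadjusted p = 0.00888, adjusted p = 0.534). Together with YABBY5a it made 2 members with an unadjusted p of at most 0.05. For YABBY1b the value was 0.76 (−0.38 to 1.89, adjusted p = 0.822). The comparisons share libraries, so their values for a gene are not independent of each other.

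**Figure D3:**
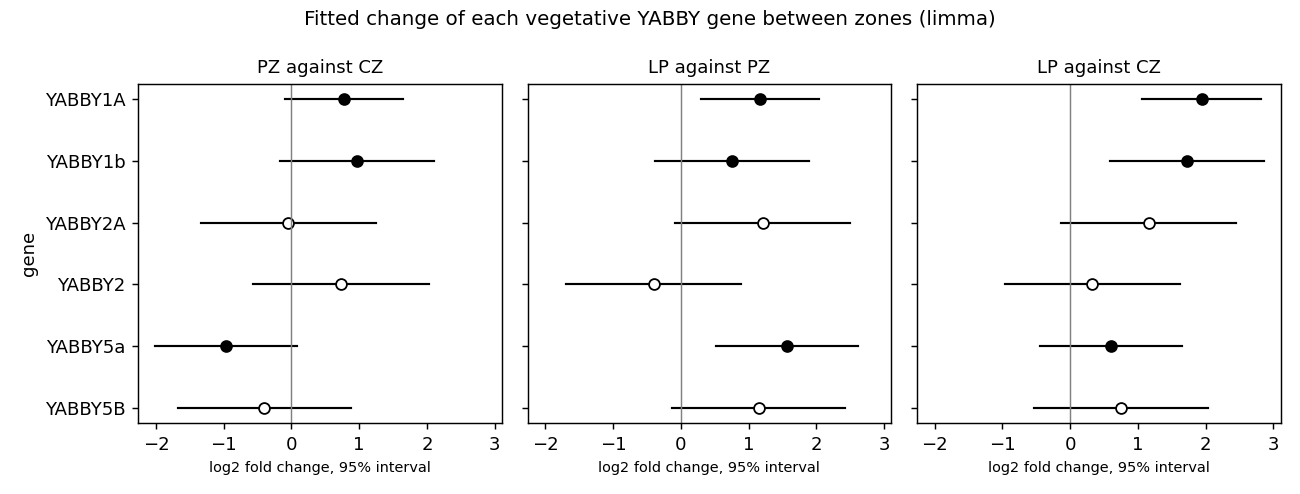
Log2 fold change on the log2(normalized count + 1) scale with its 95% interval from limma (horizontal axis) for each YABBY gene, in 3 comparisons of zones. Filled points are genes in the test, and open points are genes under the minimum, from the fit without one. Between LP and CZ the intervals of YABBY1A (1.07 to 2.81) and YABBY1b (0.59 to 2.86) lie above 0. Those of YABBY2A, YABBY2, YABBY5a and YABBY5B span it.

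The make-up of the family differed from library to library. YABBY1A held 45.8 ± 16.6% of the family's reads in LP, 44.6 ± 10.8% in PZ and 32.4 ± 22.8% in CZ (SD, n = 3 each), the last falling to 20.2% without CZ1. In the same order YABBY5a held 21.6 ± 8.15%, 14.5 ± 7.05% and 39.0 ± 17.9%, and YABBY1b 19.1 ± 9.06%, 26.5 ± 16.9% and 11.8 ± 5.66%. The CZ libraries ranged from CZ1 with 56.8% YABBY1A and 23.9% YABBY5a to CZ3 with 11.8% and 58.8%. The summed YABBY1 type genes, at 17.59, 10.67 and 2.55 in CZ1 to CZ3, were at 16.19, 22.95 and 13.79 in PZ1 to PZ3 and at 26.34, 40.43 and 46.97 in LP1 to LP3. The summed YABBY5 type genes, at 6.64, 10.00 and 11.06 in CZ, were at 2.31, 5.18 and 6.21 in PZ and at 17.27, 15.69 and 13.11 in LP. The YABBY5 type thus separated PZ from both other zones, but PZ3 at 6.21 was close to CZ1 at 6.64. A single read was worth 0.69 in PZ3. YABBY5B alone did not separate PZ from CZ, and neither did the YABBY1 type. The log2 ratio of the YABBY1 to the YABBY5 type was 1.79 ± 0.69 in PZ, 1.22 ± 0.60 in LP and −0.13 ± 1.54 in CZ (SD, n = 3 each). This comparison was chosen after the values were seen, and it gave an exact permutation p of 0.2 between PZ and CZ (0.3 adjusted over 3 comparisons). Over the 9 libraries, which differ in zone and depth, Pearson's r of log2 counts was 0.78 between YABBY5a and YABBY5B and 0.64 between YABBY1A and YABBY1b. It was 0.29 between YABBY1A and YABBY5a and 0.06 between YABBY1b and YABBY5a. The correlations did not divide by type. Within the YABBY2 type r was 0.06, while YABBY2A had r of 0.76 with YABBY5B, 0.67 with YABBY1b and 0.61 with YABBY5a.

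STM, CUC2 and the chloroplast protein genes that the study lists were taken as markers. They separated LP from the meristem, but not CZ from PZ. They were listed on these same libraries, so their course is a description and no independent check of the labels. The study also ran qPCR on genes selected from its list, which was not used here. STM, the meristem gene, had 9.81, 4.67 and 17.01 normalized counts in CZ1 to CZ3, 12.34, 1.48 and 4.83 in PZ1 to PZ3, and 1.3, 0.60 and 1.09 in LP1 to LP3. Its LP libraries lay below all meristem libraries, but LP1 at 1.3 had 3 reads and PZ2 at 1.48 had 2. CUC2, which marks organ boundaries, was at 15.58, 20.01 and 7.66 in CZ, at 15.42, 18.51 and 16.55 in PZ and at 2.59, 3.62 and 6.55 in LP. CZ3 thus held the highest STM count and the lowest CZ counts of CUC2, YABBY1A (2 reads) and YABBY1b (1 read). It also held the highest CZ counts of YABBY5a (8.51) and YABBY5B (2.55). PZ2, with the lowest STM count of the meristem (2 reads), had the highest summed YABBY count of the meristem. The 56 chloroplast protein genes listed by the study took 0.661%, 1.48% and 0.947% of the reads in CZ1 to CZ3, 1.13%, 1.43% and 1.72% in PZ1 to PZ3, and 2.22% to 3.11% in LP, so that CZ2 lay above PZ1 and PZ2. The study chose these genes on these libraries too, and zones were cut by their chlorophyll fluorescence. The part of tissue make-up in the YABBY counts was not tested.

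**Figure D4:**
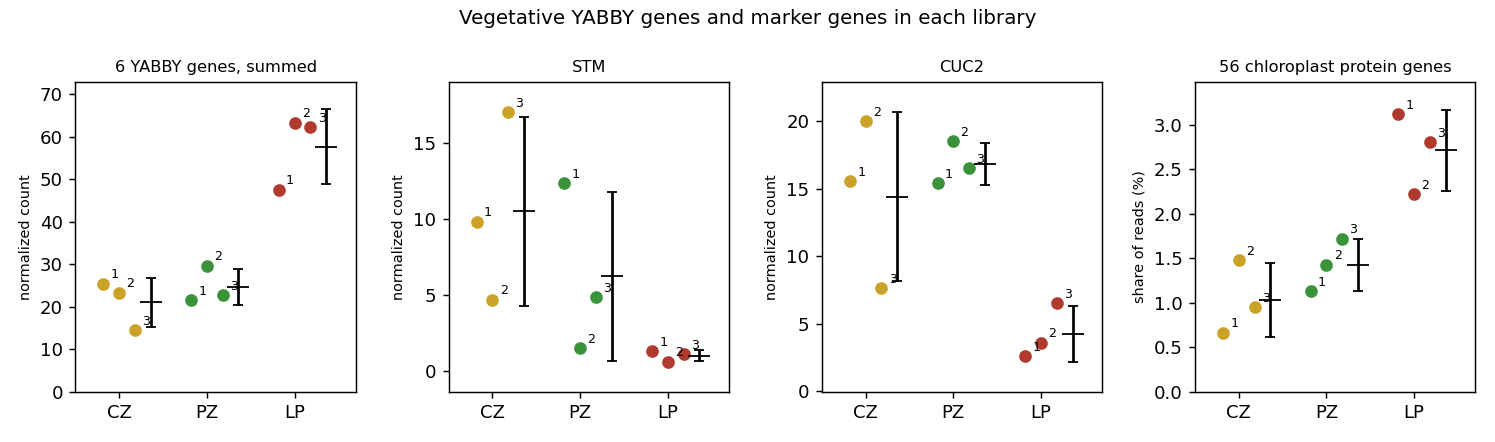
Summed normalized count of the 6 YABBY genes, normalized counts of STM and CUC2, and the share of reads on 56 chloroplast protein genes (%), with each library as a numbered point and mean ± SD (n = 3) as black bars. STM is at 0.60 to 1.3 in LP, at 1.48 to 12.34 in PZ and at 4.67 to 17.01 in CZ, whereas the YABBY sum is at 47.50 to 63.36 in LP.

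The study lists 10 further transcription and development genes. Its list was chosen on these samples together with qPCR of some of its genes. The counts here are thus no independent evidence of a direction. Between LP and CZ 0 of them were called higher and 2 lower (2 higher and 7 lower at an unadjusted p of at most 0.05), at a median log2 fold change of −1.56 beside 0.02 over all 4044 genes. The 2 were STM (−2.39, adjusted p = 0.0184 from limma) and 1 of the listed FD genes of the floral transition, Solyc02g083520 (−1.59, adjusted p = 0.0293). For PZ against CZ the calls were 0 of 10 (3 at that unadjusted p), and for LP against PZ also 0 (4 at that p). Every PZ library lay below every CZ library for 2 of the 10, AP2 (Solyc03g123430) and SVP (Solyc04g076280), beside 4.23% of the genes tested. Among the 10, CRK, listed by the study under actin polymerization, followed the YABBY sum most closely. The normalized count was 0.87, 0.67 and 0 in CZ1 to CZ3, 0, 0.74 and 1.38 in PZ1 to PZ3, and 4.75, 6.64 and 13.11 in LP1 to LP3. CRK was higher in all LP libraries but did not pass the test (log2 fold change 2.54, adjusted p = 0.0949). Another YABBY gene, Solyc01g010240, which the study's annotation describes as similar to the carpel gene CRABS CLAW, had 4 reads in all 9 libraries.

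Among 4041 other genes tested, those most like the summed YABBY count over the 9 libraries were Solyc02g089080.2 (Pearson's r = 0.99) and CRK (0.94). The most opposite were Solyc09g066500.2 (r = −0.94) and Solyc03g117480.2 (−0.93). All but CRK are given by ID, since they were not annotated here. In LP the normalized count of Solyc02g089080.2 was 13.4 ± 1.82, beside 4.14 ± 1.4 in CZ and 4.87 ± 1.04 in PZ (SD, n = 3 each). The correlations are a description over libraries that differ in zone and depth.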

How the data were processed

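RNA of 9 laser-captured samples was sequenced by CEL-Seq. The authors aligned 36 bp insert reads with Bowtie2 2.1.0 to the tomato genome SL2.50 with the plastid genome added, counted reads per gene with a script based on HTSeq and used DESeq2 1.4.0. The deposited signal is a normalized count, the reads of a gene divided by a factor per library and rounded to 2 decimals by the authors, and how the factors were found is not given in the sources used here. In every library 100% of the values were whole multiples of a step (tolerance 0.0051), which gave back the reads. Every column had a sample.

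Genes that reached a normalized count of 6 in 1 or more libraries were fitted with limma 3.58.1 (R 4.3.3) on log2(normalized count + 1), with zone as the factor, all 9 libraries and a variance trend. A call required a change of 1.5-fold or more and a Benjamini-Hochberg adjusted p no larger than 0.05. The prior degrees of freedom came out as infinite, so the error of a gene was that of the trend at its mean level. Ratios of members used exact permutation tests (scipy 1.17.1). The members, gene lists and tests were chosen with earlier results of these data known. Named genes were all members, the study's other transcription and development genes, and the 2 genes most and the 2 least correlated with the summed members. The alternatives were pseudocounts of 0.5 and 2, no filter, a minimum mean of 3 over the libraries, TMM and equal totals, the recovered reads in edgeR 4.0.16 and in DESeq2 1.42.0, a replicate block, only the zones compared, and leaving out each library. RefSeq symbols were matched by chromosome, since 0 of its entries carry IDs of this kind. Lists of other polarity and meristem genes were left out for the same reason, as were 2 further YABBY candidates. No protein or promoter sequences were used here.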

Additional observations from a re-analysis of the deposited data

How the results depend on the processing

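Between LP and CZ 1 member was called, YABBY1A, and the number was 0 with edgeR, with DESeq2 and with only the zones compared, and 0 to 1 when each library was left out (0 without CZ3 or LP3). In the other comparisons it was 0 under every alternative run. The log2 fold changes of YABBY1A, YABBY1b and YABBY5a kept their direction in all 3 comparisons under all 19 alternatives. TMM scaling moved the median log2 fold change of all genes by 0.12 for LP against PZ, −0.11 for LP against CZ and −0.23 for PZ against CZ. YABBY1A stood at 1.82 between LP and CZ with it (adjusted p = 0.0169 from limma). Without single libraries the share of the members' reads moved by 1.5 times or more for YABBY1A in CZ (32.4% to 20.2% without CZ1), YABBY5B in CZ (9.5% to 5.42% without CZ3) and YABBY2 in CZ (3.24%, at 0.568% without CZ2 and 4.85% without CZ3) and YABBY2 in LP (2.16%, at 1.43% without LP1 and 3.25% without LP3). The summed counts moved by less than 1.5 times. The ratios of member pairs kept their direction with pseudocounts of 0.5 and 2. Samples with the same replicate number are not said to share plants. Their deviations from the zone means correlated at 0.03 to 0.11 over 9 pairs, 2 of them above 0.1, and those of samples with different numbers at −0.10 to 0.04. Each of the 9 libraries correlated best with one of its own number. With a replicate block the members called were 1, 0 and 0 in the 3 comparisons, as without it, while calls over all genes went from 58, 13 and 6 (CZ to LP, CZ to PZ, PZ to LP) to 74, 20 and 11. In the same order they were 50, 27 and 25 with edgeR, 31, 2 and 0 with DESeq2, 32, 7 and 5 with no filter, 42, 4 and 0 with the minimum mean, 37, 9 and 5 with TMM, 9, 0 and 0 with only the zones compared, and 26 to 63, 3 to 20 and 0 to 8 without single libraries. Depth limits YABBY2A, YABBY2 and YABBY5B, with 18 to 28 reads each.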

Other observations

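The gene IDs carry a version number, which is 1 for YABBY2 and YABBY5B and 2 for the other members. Over the whole table, 46.9% of the 19064 genes with version 1 had a read and 4.73% reached the minimum for the test, against 87.8% and 20.1% of the 15661 genes with version 2. The part of the gene models in the low counts of YABBY2 and YABBY5B was not tested.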
